A study of Mus musculus with 6 samples.

Results

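The genes described here are 10 markers of mouse hair follicle stem cells, *Cd34*, *Cd200*, *Lgr5*, *Lgr6*, *Lrig1*, *Lhx2*, *Sox9*, *Nfatc1*, *Tbx1* and *Runx1*. They were chosen by symbol and are 10 of the 24982 genes listed for each RNA-seq library. The 6 libraries came from keratinocyte lines of newborn C57BL/6 mouse skin, grown without any treatment. The KSFM-Ca2+ cells, with 3 libraries, had been established and kept in a keratinocyte medium low in calcium. The DKSFM cells, also with 3 libraries, were KSFM-Ca2+ cells that survived a change to a defined keratinocyte medium and had adapted to it. That medium holds more calcium. The comparison therefore asks how the marker RNAs of the adapted cells differed from those of the line they came from. Calcium, the rest of the medium and the selection of surviving cells differed together between the lines and cannot be told apart. The KSFM-Ca2+ lines had tetraploid or hyperdiploid chromosome sets by the study's karyotyping, which limits them as a model of normal follicle cells. The study found most primary keratinocytes to be tetraploid or close to it as well. What a replicate was (a culture, a passage or an extract) is not stated, so p-values measure only the spread between these samples, which may be technical. The word "combined" in the names given to KSFM-Ca2+ replicate 3 and to all DKSFM replicates is not explained either.

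The value listed for a gene is its coverage, the mean number of reads over each base of the gene, written to 1 decimal and not scaled to the size of the library. Because coverage is per base, levels of different genes are compared on this scale. That rests on how coverage was computed, which is not stated, and was not tested. Coverage summed over all genes was 1601676, 1238411 and 1057750 in KSFM-Ca2+ replicates 1 to 3. It was 1174348, 1239438 and 1170675 in DKSFM replicates 1 to 3. The deepest library was thus KSFM-Ca2+ replicate 1, in which the listed values of *Cd200*, *Lrig1*, *Sox9*, *Nfatc1* and *Runx1* were the highest of that line. Normalized coverage removes this difference in depth, and it is given as mean ± SD over 3 libraries. Converted with transcript lengths, the values come to an approximate 27.1 to 41.6 M reads (M, mega) per library. The study's methods give fewer reads per sample, so the conversion overstates reads, and the approximate read numbers below are likely too high. Differences are DKSFM minus KSFM-Ca2+ on the scale log2(normalized coverage + 0.1), which understates the change of genes with little coverage. They were tested with limma over the 12409 genes that reached a normalized coverage of 0.5 in at least 3 libraries. A gene is called higher or lower where its Benjamini-Hochberg adjusted p is under 0.01 and the difference is at least 2-fold.

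Stem cells of the hair follicle rest in the bulge, the part of the outer root sheath where the arrector pili muscle attaches, and in the hair germ just beneath it. They rebuild the lower follicle at each hair cycle, and separate stem cell pools above the bulge maintain the isthmus, the sebaceous gland and the junction with the epidermis. Among the markers, CD34 and CD200 are cell surface glycoproteins, LGR5 and LGR6 are receptors for the R-spondins that strengthen Wnt signalling, and LRIG1 is a transmembrane protein that restrains receptors of the EGF family, while LHX2, SOX9, NFATC1, TBX1 and RUNX1 are transcription factors of follicle stem cells.

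Both lines carried the RNAs of keratinocytes. All 10 genes of a keratinocyte marker list passed the filter, 4 of them higher in DKSFM cells (*Krt5*, *Krt14*, *Dsp* and *Perp*), 2 lower (*Epcam* and *Lamb3*) and 4 not past the threshold. Their summed normalized coverage was 20328, 20772 and 20468 in the KSFM-Ca2+ libraries and 48465, 44631 and 49054 in DKSFM libraries. *Krt14*, the basal keratin whose reads may be shared with related keratin genes, made up 61.3% of that sum. With quantile normalization neither *Krt14* nor *Lamb3* was called, and *Lamb3* was not called with treat, limma's test against a 2-fold change itself. *Cdh1*, the E-cadherin gene, was within 2-fold, at 160 ± 2.46 in KSFM-Ca2+ cells and 145 ± 3.51 in DKSFM cells. Its log2 fold change was -0.14 (adjusted p = 0.00292, limma), whereas the study's qPCR found more *Cdh1* RNA in the adapted cells. Other cell types of the skin left few reads. Of 8 fibroblast markers only *Pdgfra*, a growth factor receptor, was above 0, and the 3 collagen genes *Col1a1*, *Col1a2* and *Col3a1* were listed at 0 in each library, as were *Dcn*, *Lum*, *Thy1* and *Corin*. The fibroblast sum was 1.14, 0.893 and 1.3 in the KSFM-Ca2+ libraries and 2.33, 2.09 and 2.23 in DKSFM libraries, and *Pdgfra* did not pass at a log2 fold change of 0.95, though without KSFM-Ca2+ replicate 3 it was called higher (1.06). For 7 melanocyte markers the sum was 4.12, 3.97 and 4.61 in KSFM-Ca2+ cells and 17.3, 18.6 and 18.4 in DKSFM cells. The only melanocyte marker tested was *Mitf*, a transcription factor that made up 95.1% of this sum and was higher in DKSFM cells (log2 fold change 2.30), while *Dct*, *Tyr* and *Kit* were listed at 0 in all libraries. The pigment cell gene *Pmel*, not tested, was listed at 0.5, 0.7 and 0.6 in KSFM-Ca2+ cells and at 0.3, 0.5 and 0.2 in DKSFM cells, and *Tyrp1* and *Mlana* did not exceed 0.2 in any library, so the higher sum is that of *Mitf* alone. For 7 endothelial markers the sum was 2.82, 3.18 and 3.31 in KSFM-Ca2+ cells and 8.26, 8.25 and 7.43 in DKSFM cells. *Pecam1*, an adhesion molecule, made up 93.3% of it and was the only endothelial marker tested. It was higher in DKSFM cells (log2 fold change 1.41, a call lost with treat), whereas *Cdh5*, *Tie1*, *Vwf* and *Emcn* were at 0 throughout. Of the others, *Kdr* was listed at 0.1, 0.1 and 0 in KSFM-Ca2+ cells and at 0.2 in each DKSFM library. *Tek* was listed at 0.2, 0.4 and 0.2 in KSFM-Ca2+ cells and at 0.2, 0.1 and 0.3 in DKSFM cells. For 8 leukocyte markers the sum was 11.0, 11.3 and 12.9 in KSFM-Ca2+ cells and 14.5, 19.1 and 21.3 in DKSFM cells, with 96.8% from the lysosomal gene *Cd68*. *Cd68* was the only leukocyte marker tested and did not reach 2-fold, and *Cd3e* and *Tyrobp* were listed at 0. *Fcer1g*, a receptor chain of myeloid and mast cells not tested here, was listed at 0.1, 0.1 and 0.2 in KSFM-Ca2+ cells and at 0.8, 0.3 and 0.6 in DKSFM cells. It was called higher with no filter (log2 fold change 1.52), without KSFM-Ca2+ replicate 3 (1.82) and without DKSFM replicate 2 (1.87). Where a library was left out, it passed the filter through the DKSFM libraries alone, so those calls are descriptions. The part of other cells in the differences below was not tested beyond these levels.

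The first question was which markers lay at the rounding step, that is, had no library of a line listed above 0.1. In the KSFM-Ca2+ cells these were 3 of the 10 members, *Lgr5*, *Lgr6* and *Lhx2*. In the DKSFM cells there were also 3, *Cd34*, *Lgr6* and *Lhx2*, so that 2 members were at the step in both lines and 4 in at least 1 line. Only *Lgr6* was listed at 0 in all 6 libraries. The plot of listed coverage marks the step by a dashed line, above which *Lgr5* lay in DKSFM cells and *Cd34* in KSFM-Ca2+ replicate 2. Lying at the step was common in the files, where 11438 of all genes (45.8%) did so in KSFM-Ca2+ cells, 11214 (44.9%) in DKSFM cells and 10468 (41.9%) in both. A step of 0.1 was worth few reads, by the same conversion at most an approximate 2.95 for *Cd34*, 5.55 for *Lgr5*, 7.85 for *Lgr6* and 2.67 for *Lhx2*. The other 6 members, *Cd200*, *Lrig1*, *Sox9*, *Nfatc1*, *Tbx1* and *Runx1*, were listed above the step in each library. With the step set at 0.2 instead, the counts were 4 members in KSFM-Ca2+ cells and 3 in DKSFM cells, the addition being *Cd34*.

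**Figure D1:**
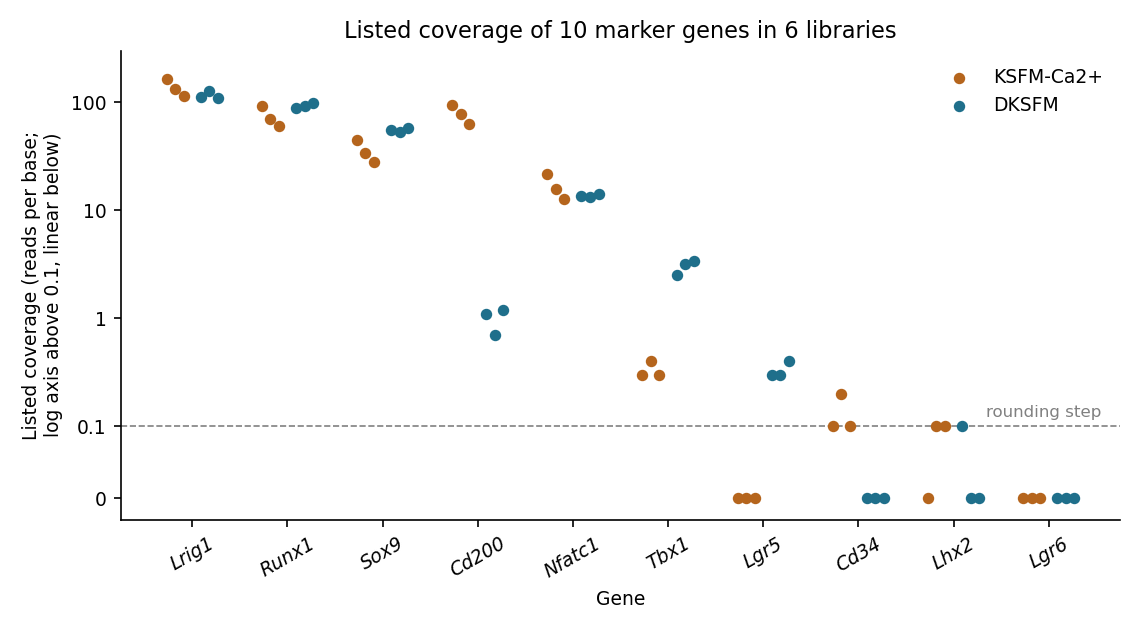
Listed coverage of the 10 marker genes (vertical axis, reads per base, logarithmic above 0.1 and linear below it) in the 3 KSFM-Ca2+ and 3 DKSFM libraries, with a point for each library, replicates 1 to 3 from left to right, and a dashed line at the rounding step of 0.1. *Cd200* spans 62.8 to 94.8 in KSFM-Ca2+ and 0.7 to 1.2 in DKSFM, *Tbx1* lies higher in DKSFM, and *Lgr5*, *Cd34*, *Lhx2* and *Lgr6* reach 0 in at least 1 library.

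Of the 10 members, 6 passed the filter and were tested. *Cd200* was lower in DKSFM cells, *Tbx1* was higher, and *Lrig1*, *Sox9*, *Nfatc1* and *Runx1* were within 2-fold. By direction, 1 of 6 tested members was called higher, where 13.1% of all tested genes were, and 1 of 6 was called lower, where 10.6% were. Without regard to size, 4 of 6 had an adjusted p under 0.01, against 72.5% of all tested genes. The libraries of the lines did not overlap in 5 of 6, against 83.3% of all tested genes. These shares are near the background and are no result about the members. The median log2 fold change of the 6 was 0.17, beside -0.01 over all tested genes, but over the 5 that reached the filter in every library it was -0.11, beside -0.03 over the 11112 such genes. *Tbx1* passed the filter only through the DKSFM libraries, in which it is high, and so had to differ, while the other 5 did not depend on one line. The same limit holds for 11 genes called higher in the lists below, *Podxl2*, *Notum*, *Rnf43*, *Barx2*, *Sfrp1*, *Dlx3*, *Edar*, *Sostdc1*, *Krt79*, *Gli1* and *Axin2*, and for *Tmprss7* and *Cbr3* among the chromosomal neighbours. *Btc* and the neighbours *Abca8b* and *4732490B19Rik* passed only through the KSFM-Ca2+ libraries, in which they are high, and *Postn* and *Lor* reached the filter in a single KSFM-Ca2+ library. No p is given for these genes, and their calls are descriptions. Neither the counts nor the median describe the 4 members not tested. In bulk samples, fewer cells that carry a marker and less of its RNA per cell cannot be told apart. The study itself named *Cd34*, *Cd200* and *Lgr5* as differing between these lines. From the lists it also named *Krt1*, *Krt10*, *Krt14*, *Krt15*, *Lor*, *Fzd3*, *Ly6a*, *Dll1* and a *Gli* gene. The direction of none of these genes is independent evidence. It further named *Cdh1* as higher in DKSFM cells by qPCR, whereas here the log2 fold change of *Cdh1* was -0.14.

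**Figure D2:**
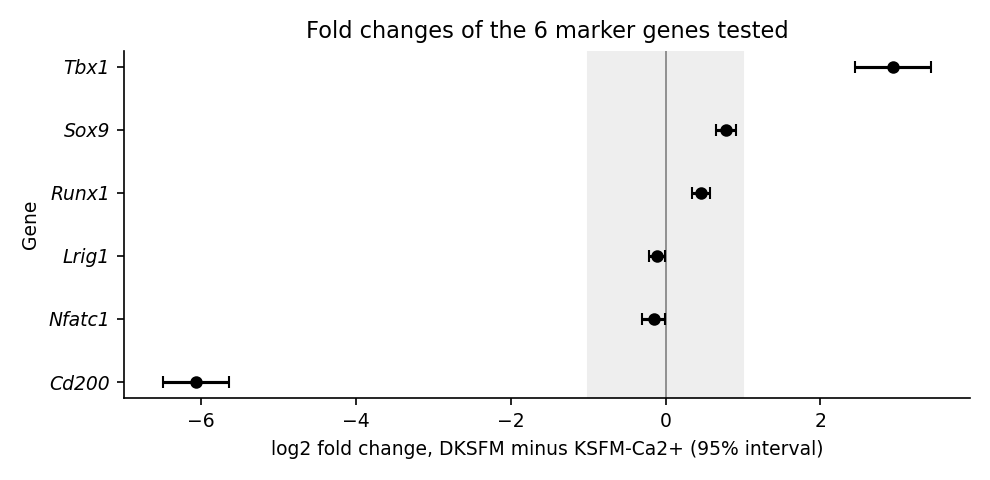
Log2 fold change (horizontal axis, DKSFM minus KSFM-Ca2+) of the 6 marker genes tested, with points for limma's estimates, bars for their 95% confidence intervals and a grey band for changes under 2-fold. *Tbx1* passed the filter through DKSFM alone, so its bar is no test. *Cd200* at -6.06 and *Tbx1* at 2.94 lie outside the band, and the other 4 lie inside it.

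The members were also compared by the bases before their start sites, for which RefSeq windows of 250 bases on GRCm38.p6 were read. Windows were found for 7 of the 10 members, 10 in all, and *Lgr5*, *Sox9* and *Nfatc1* are not part of this comparison. Of the members with windows, *Cd200*, *Tbx1* and *Runx1* lie on chromosome 16. The first sequences shown belong to the members past the threshold, and *Runx1* is added as a tested member of the same chromosome whose window holds motif matches, in capitals. The *Cd200* window is chr16:45409054-45409303, the *Tbx1* window chr16:18590672-18590921 and the *Runx1* window chr16:92697330-92697579, each on the minus strand and written 5′ to 3′. The first and the second end where the annotated gene begins, and the last precedes an inner start of *Runx1* and lies in an intron of its longer transcripts.
Cd200: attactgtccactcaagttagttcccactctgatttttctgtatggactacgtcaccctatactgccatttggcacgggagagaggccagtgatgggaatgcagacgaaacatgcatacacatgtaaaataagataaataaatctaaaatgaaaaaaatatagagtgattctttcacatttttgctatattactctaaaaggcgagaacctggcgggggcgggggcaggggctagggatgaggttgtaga
Tbx1: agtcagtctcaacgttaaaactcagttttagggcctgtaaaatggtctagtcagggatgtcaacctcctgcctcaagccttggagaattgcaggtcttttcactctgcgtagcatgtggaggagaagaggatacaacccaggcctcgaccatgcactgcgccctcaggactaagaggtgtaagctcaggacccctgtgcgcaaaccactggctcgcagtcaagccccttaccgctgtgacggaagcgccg
Runx1: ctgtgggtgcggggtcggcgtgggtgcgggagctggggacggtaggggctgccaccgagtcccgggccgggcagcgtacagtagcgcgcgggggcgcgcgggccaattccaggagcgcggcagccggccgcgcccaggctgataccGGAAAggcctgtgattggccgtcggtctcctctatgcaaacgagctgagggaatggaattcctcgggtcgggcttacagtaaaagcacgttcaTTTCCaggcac
Short motifs of the factor families among the members and of the TCF/LEF factors of Wnt signalling were searched as 6 strings of 5 to 7 letters on both strands, and none of them contains another. Of all 32851 windows in the table, the RUNX core TGTGGT occurred in 14.0%, the NFAT core GGAAA in 55.6% and the SOX core ACAAT in 27.7%. The T-box motif GGTGTGA occurred in 3.33%, the LIM homeobox core TAATTA in 4.84% and the TCF/LEF core CTTTGA in 13.8%. Neither the *Cd200* window nor either of the *Tbx1* windows held any of the 6 strings. Each *Runx1* window held 2 NFAT cores and none of the other strings. *Cd34* and *Lgr6* held 1 NFAT core and 1 SOX core each, *Lrig1* held 1 SOX core, and both *Lhx2* windows held 1 NFAT core. A match is a description of letters and not a binding site, and no match means only that these letters are not in the window. In base composition the windows shown had 42.4% G and C and 6 CG dinucleotides for *Cd200*, 54.4% and 10 for *Tbx1*, and 67.6% and 27 for *Runx1*. The other *Tbx1* window had 67.2% and 17 and the window at the outer *Runx1* start 45.6% and 2, so the order of these genes depends on the start taken. The medians over all windows were 52.4% and 6.

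The surface glycoproteins were low or lower in DKSFM cells. *Cd200* (chromosome 16 from 45382135 to 45409053, minus strand), whose product restrains myeloid cells that carry its receptor, was listed at 94.8, 77.2 and 62.8 in KSFM-Ca2+ libraries and at 1.1, 0.7 and 1.2 in DKSFM libraries. All KSFM-Ca2+ libraries were high and all DKSFM libraries close to the lower end of the scale, with no overlap. After normalization the KSFM-Ca2+ libraries stood at 72.3, 76.6 and 74.2 and the DKSFM libraries at 1.17, 0.696 and 1.27. This was a fall of 66.8 times on the log2(value + 0.1) scale (log2 fold change -6.06, 95% interval -6.49 to -5.63, adjusted p = 2.83e-08, limma). Its size depends on the pseudocount, the log2 fold change being -5.62 with 0.5 and -5.22 with 1. In KSFM-Ca2+ cells 74.8% of tested genes had a lower level than *Cd200*, and in DKSFM cells 7.35% did. *Cd34* (chromosome 1 from 194938819 to 194961279, plus strand), a sialomucin of bulge cells and blood progenitors, was listed at 0.1, 0.2 and 0.1 in KSFM-Ca2+ libraries and at 0 in the 3 DKSFM libraries. Its KSFM-Ca2+ values stand for an approximate 2.95, 5.89 and 2.95 reads. The lines did not overlap, but the gap is a few reads, and *Cd34* was not tested. The study also measured *Cd34* by qPCR and reported more of it in KSFM-Ca2+ cells. An exact permutation test of 3 against 3 libraries cannot go below a two-sided p of 0.1, so none was run for untested members.

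Of 6 genes in a list of CD34 relatives and CD200 receptors, 2 were tested. *Podxl*, which encodes the CD34-related sialomucin podocalyxin, was listed at 16.5, 10.7 and 9.3 in KSFM-Ca2+ libraries and at 0.6, 0.8 and 0.7 in DKSFM libraries. It was thus lower in each DKSFM library (log2 fold change -3.80, standard error (SE) 0.122, adjusted p = 3.64e-08). The relative *Podxl2*, which encodes endoglycan, went the other way. It was listed at 0 in KSFM-Ca2+ libraries and at 1.1, 1.0 and 1.4 in DKSFM libraries, so that it lay higher in each DKSFM library, with no fold given against a line at 0. The CD200 receptor genes *Cd200r1*, *Cd200r2*, *Cd200r3* and *Cd200r4* were listed at 0 in all 6 libraries.

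The R-spondin receptors among the members were near or at the limit of the files. *Lgr5* (chromosome 10 from 115450311 to 115587780, minus strand), a marker of the lower bulge and hair germ, was listed at 0 in the 3 KSFM-Ca2+ libraries and at 0.3, 0.3 and 0.4 in DKSFM libraries. The DKSFM values stand for an approximate 16.6, 16.6 and 22.2 reads. They lay above the KSFM-Ca2+ libraries without overlap but under the filter. *Lgr6* (chromosome 1 from 134983301 to 135105276, minus strand), a marker of stem cells in the isthmus, was listed at 0 in each library, and it was not detectable at this depth. The paralog *Lgr4*, a broadly expressed receptor of the same ligands, was much more abundant than both. It was listed at 7.4, 5.2 and 4.5 in KSFM-Ca2+ libraries and at 52.3, 54.5 and 49.9 in DKSFM libraries, all DKSFM libraries being far above all KSFM-Ca2+ libraries. Its normalized coverage was 5.38 ± 0.247 and 54.2 ± 1.22 (log2 fold change 3.31, SE 0.0535, adjusted p = 1.18e-09, limma).

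Around these receptors, a list of 15 genes of R-spondins, their receptors, Wnt coreceptors and other parts or targets of Wnt signalling had 8 tested, of which 3 were higher in DKSFM cells, 1 lower and 4 not past the threshold. Their median log2 fold change was 0.10, and 0.01 over the 6 at the filter in every library. The ligand genes *Rspo1*, *Rspo2*, *Rspo3* and *Rspo4* were listed at 0 in all 6 libraries. Of the ubiquitin ligases that remove Wnt receptors and are themselves held back by R-spondins, *Znrf3* had a normalized coverage of 8.76 ± 0.222 in KSFM-Ca2+ cells and 9.20 ± 0.0463 in DKSFM cells and did not pass (log2 fold change 0.07, adjusted p = 0.306). *Rnf43*, the other such ligase, was at 0.286 ± 0.0797 and 0.826 ± 0.18 and was called higher (log2 fold change 1.27). That call was lost under 7 of the 17 alternative settings in which *Rnf43* was tested, among them the omission of DKSFM replicate 1 or of DKSFM replicate 2. *Notum*, which encodes a secreted inactivator of Wnt proteins, was listed at 0 in KSFM-Ca2+ libraries and at 0.9, 1.7 and 1.2 in DKSFM libraries. With the filter on every library, 1 gene of this list was called higher. The gene called lower was *Ascl2*, a transcription factor of LGR5-positive intestinal stem cells, at 1.84 ± 0.399 and 0.687 ± 0.187 (log2 fold change -1.31, adjusted p = 0.000953). The call of *Ascl2* was lost with pseudocounts of 0.5 and 1, with treat and with the combined libraries only.

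*Lrig1* (chromosome 6 from 94604529 to 94700158, minus strand), a marker of the upper follicle that dampens EGF receptor signalling, had the highest coverage of the members in both lines. It was listed at 163.6, 133.7 and 113.4 in KSFM-Ca2+ libraries and at 112.2, 128.0 and 109.2 in DKSFM libraries. Normalized values were 125, 133 and 134 in KSFM-Ca2+ cells and 119, 127 and 116 in DKSFM cells, so the lines overlapped. The log2 fold change was -0.11 (95% interval -0.22 to -0.01, adjusted p = 0.0438), which is not past the threshold of 0.01, and its interval lies well inside 2-fold. *Lrig1* was above 84.5% of tested genes in KSFM-Ca2+ cells and 84.0% in DKSFM cells. The gene *Slc25a26* overlaps it on the opposite strand with a listed coverage of 6.3 to 9.2, and the libraries were directional.

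The relatives of *Lrig1* did rise. *Lrig3* was listed at 3.4, 2.8 and 2.4 in KSFM-Ca2+ libraries and at 12.0, 14.0 and 11.6 in DKSFM libraries, with a wide gap between the lines (log2 fold change 2.20, SE 0.0822, adjusted p = 7.98e-08). *Lrig2* moved less, from 5.09 ± 0.155 to 11.1 ± 1.07 (log2 fold change 1.11, adjusted p = 5.48e-06), a call lost with quantile normalization, a pseudocount of 1 and treat. Together with the EGF receptor family, its ligands, the HGF receptor gene *Met* and *Errfi1*, which encodes an inhibitor of EGF receptors, these made a list of 14 genes, 12 of them tested, with 4 higher, 4 lower and 4 not past the threshold. The list's median log2 fold change was 0.13, and 0.42 over the 11 genes at the filter in every library, *Btc* being the one left out. The genes called higher were the *Lrig* paralogs and 2 receptors, and those called lower were ligands. *Egfr*, the receptor itself, went from 18.6 ± 0.238 to 46.8 ± 2.08 (log2 fold change 1.33, adjusted p = 5.25e-08) and *Erbb3*, a family member without strong kinase activity of its own that was named after its value was seen, from 6.03 ± 0.466 to 22.5 ± 0.657. The 4 genes called lower were all ligands of this family, epiregulin (*Ereg*, log2 fold change -3.53), betacellulin (*Btc*), amphiregulin (*Areg*, -3.14) and heparin-binding EGF-like growth factor (*Hbegf*, -2.56). *Btc* was listed at 2.0, 1.7 and 1.3 in KSFM-Ca2+ libraries and at 0.1, 0.1 and 0 in DKSFM libraries, the latter at the rounding step, so that the size of its fall rests on the pseudocount. A further ligand gene, *Tgfa*, had 36.6 ± 0.132 and 32.4 ± 1.45, within 2-fold.

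Among the transcription factors, *Tbx1* (chromosome 16 from 18580979 to 18590671, minus strand), which helps bulge stem cells renew themselves, was listed at 0.3, 0.4 and 0.3 in KSFM-Ca2+ libraries and at 2.5, 3.2 and 3.4 in DKSFM libraries. Each DKSFM library lay several times above each KSFM-Ca2+ library. By the conversion, which overstates reads, the listed values stand for an approximate 7.71, 10.3 and 7.71 reads in KSFM-Ca2+ cells and 64.2, 82.2 and 87.4 reads in DKSFM cells. The rise was 7.66 times on the log2(value + 0.1) scale (log2 fold change 2.94). Because the filter admitted *Tbx1* through its DKSFM values alone, this is a description, given with no p. The estimate for *Tbx1* was smaller with a larger pseudocount, 2.14 with 0.5 and 1.64 with 1. Even in DKSFM cells *Tbx1* was a gene of low level, above 16.3% of tested genes, compared with 3.79% in KSFM-Ca2+ cells.

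*Sox9* (chromosome 11 from 112782224 to 112787760, plus strand), which specifies and maintains bulge cells, was listed at 45.0, 33.6 and 27.7 in KSFM-Ca2+ libraries and at 55.7, 53.4 and 57.8 in DKSFM libraries. The DKSFM libraries were all higher, and normalization widened the gap, with 33.5 ± 0.806 and 57.8 ± 4.26. The log2 fold change of 0.78 (95% interval 0.65 to 0.92, adjusted p = 3.57e-06, limma) is a 1.72-fold difference, larger than the spread between replicates and under 2-fold. *Runx1* (chromosome 16 from 92601466 to 92826149, minus strand), which promotes the activation of bulge cells at the onset of hair growth, was listed at 92.3, 69.4 and 60.1 in KSFM-Ca2+ libraries and at 88.7, 92.2 and 97.6 in DKSFM libraries. As listed the lines overlapped, through the deep KSFM-Ca2+ replicate 1. Normalized they did not, with 70.4, 68.9 and 71.0 in KSFM-Ca2+ cells and 94.0, 91.6 and 104 in DKSFM cells. The difference was 1.37-fold (log2 fold change 0.46, 95% interval 0.35 to 0.57, adjusted p = 3.66e-05). With only the libraries named combined, where the lone KSFM-Ca2+ library was assumed to vary like the others, the log2 fold change was 0.44 and the adjusted p 0.0137, which is not past the threshold.

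*Nfatc1* (chromosome 18 from 80606205 to 80713071, minus strand), which keeps bulge stem cells quiescent downstream of calcineurin, was listed at 21.5, 15.6 and 12.7 in KSFM-Ca2+ libraries and at 13.4, 13.3 and 14.0 in DKSFM libraries. The normalized values were 16.4, 15.5 and 15.0 against 14.2, 13.2 and 14.9, so that the lines did not overlap by a narrow margin. The log2 fold change was -0.15 (95% interval -0.30 to -0.000964, adjusted p = 0.0598), not past the threshold and well inside 2-fold. *Lhx2* (chromosome 2 from 38339281 to 38369733, plus strand), which holds bulge cells in the undifferentiated state, was listed at 0, 0.1 and 0.1 in KSFM-Ca2+ libraries and at 0.1, 0 and 0 in DKSFM libraries. Its values overlapped, and none exceeded an approximate 2.67 reads.

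Of 30 paralogs and partners of these factors, 19 were tested, with 4 higher in DKSFM cells, 3 lower, 12 not past the threshold and a median log2 fold change of 0.48. Among the NFAT genes, *Nfatc2* was listed at 1.1, 0.7 and 0.7 in KSFM-Ca2+ libraries and at 6.0, 5.4 and 7.2 in DKSFM libraries. It was the NFAT gene that rose, with no overlap between the lines (log2 fold change 2.87, SE 0.156, adjusted p = 6.39e-07). *Nfatc3* had 33.1 ± 0.204 and 25.4 ± 0.733, within 2-fold, and *Nfatc4* was listed at 0 in all libraries. For the RUNX family, the shared DNA-binding partner *Cbfb* had a normalized coverage of 650 ± 24.5 in KSFM-Ca2+ cells and 295 ± 12.4 in DKSFM cells. It was lower in DKSFM cells, the line in which *Runx1* was the higher (*Cbfb* log2 fold change -1.14, adjusted p = 6.27e-08), though its call was lost with treat. *Runx2* was at 13.3 ± 1.46 and 21.7 ± 0.937, within 2-fold, and *Runx3* was listed above 0 in a single DKSFM library, at 0.1. Of the cofactors of LIM homeobox proteins, *Ldb1*, the bridging factor, went from 102 ± 2.19 to 239 ± 6.67 (log2 fold change 1.23, adjusted p = 1.35e-08). *Lmo1*, which competes for LDB1, fell from 6.83 ± 0.927 to 1.07 ± 0.222 (log2 fold change -2.58, adjusted p = 1.92e-06), and *Lmo4* stayed within 2-fold with 85.1 ± 3.21 and 118 ± 7.89. In the T-box and SOX families, *Tbx15* was lower at 1.38 ± 0.105 against 5.20 ± 0.411 in KSFM-Ca2+ cells, and *Sox4* was higher at 108 ± 3.01 against 44.3 ± 0.563.

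The order of the members by normalized coverage, a level per base, differed between the lines. In KSFM-Ca2+ cells it ran from *Lrig1* (131 ± 4.98) through *Cd200* (74.4 ± 2.16), *Runx1* (70.1 ± 1.10), *Sox9* and *Nfatc1* (15.6 ± 0.709) to *Tbx1* (0.327 ± 0.0875) and *Cd34*, and the ranges of neighbours in that order did not overlap. *Cd200* exceeded *Runx1* by only 1.06 times, and the largest gap was that between *Nfatc1* and *Tbx1*, of 47.8 times. *Cd34* and *Lhx2* overlapped, and *Lgr5* and *Lgr6* were at 0. In DKSFM cells the order was *Lrig1* (121 ± 5.89), *Runx1* (96.4 ± 6.32), *Sox9*, *Nfatc1* (14.1 ± 0.823), *Tbx1* (3.15 ± 0.481), *Cd200* (1.04 ± 0.307), *Lgr5* (0.347 ± 0.068) and *Lhx2*, again without overlap between neighbours. *Lhx2*, *Cd34* and *Lgr6* could not be ranked there, since their ranges met at 0. The place of *Cd200* thus changed from the 2nd to the 6th of the members, below *Tbx1*, while the relative order of *Lrig1*, *Runx1*, *Sox9* and *Nfatc1* was the same in both lines. Summed over the 10 members, normalized coverage was 319, 328 and 328 in the KSFM-Ca2+ libraries and 290, 289 and 301 in DKSFM libraries, of which *Lrig1* made up 40.6%.

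The genes whose 6 values were closest to those of the members called were found by Euclidean distance over the log2 values of the 6 libraries. For *Cd200* these were *Prl2c5* (distance 0.405), a prolactin-family gene with close copies that could share its reads, the chemokine gene *Cxcl2* (1.67) and *Aspa* (1.75), which encodes aspartoacylase. *Prl2c5* was listed at 106.4, 90.0 and 64.7 in KSFM-Ca2+ libraries and at 1.2, 0.8 and 1.4 in DKSFM libraries. For *Tbx1* they were *Adgrf2* (0.458), an adhesion G protein-coupled receptor gene, the formin gene *Fhod3* (0.605) and *Tmem62* (0.618), each listed at 0.2 to 0.4 in KSFM-Ca2+ cells and at 3.3 to 3.8 in DKSFM cells. The 6 genes lie on other chromosomes than the members they resemble.

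The nearest tested genes along the chromosome, 3 on each side, were not lower along with *Cd200*. None of its 6 neighbours was lower, and 5 were not past the threshold. The exception rose, *Tmprss7*, a membrane serine protease gene 247 kb away, from 0.123 ± 0.027 to 2.86 ± 0.583 (log2 fold change 3.71). Around *Tbx1* 2 neighbours were higher, 1 was lower and 3 were not past the threshold, with a median of 0.41. *Gp1bb*, which encodes a platelet glycoprotein chain and lies 29.6 kb away, went from 5.32 ± 0.1 to 52.1 ± 1.92 (log2 fold change 3.27), and the septin gene *Sept5*, at 29.8 kb, from 9.02 ± 0.356 to 73.5 ± 2.90 (log2 fold change 3.01). These neighbours of *Tbx1* were higher in each DKSFM library than in any KSFM-Ca2+ library, but they overlap on the same strand and could share reads, so they may not be separate observations. On the other side *Txnrd2*, a mitochondrial thioredoxin reductase gene 102 kb away, was lower (log2 fold change -1.02, adjusted p = 3.64e-06). Of the 6 neighbours of *Runx1*, 2 were higher, *Rcan1*, a calcineurin inhibitor gene 131 kb away (log2 fold change 1.23, a call lost with treat), and the carbonyl reductase gene *Cbr3* at 857 kb (1.10), which passed the filter through the DKSFM libraries alone. For *Sox9*, whose nearest tested neighbour at lower coordinates lies 2257 kb away, 4 of 6 neighbours were lower, *Abca8b* and *4732490B19Rik* among them, and 1 was higher. Around *Lrig1* 2 of 6 were higher, around *Cd34* 2 of 5 and around *Lgr6* 1 of 6 were lower, and around *Lgr5*, *Lhx2* and *Nfatc1* none of 6 was called.

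**Figure D3:**
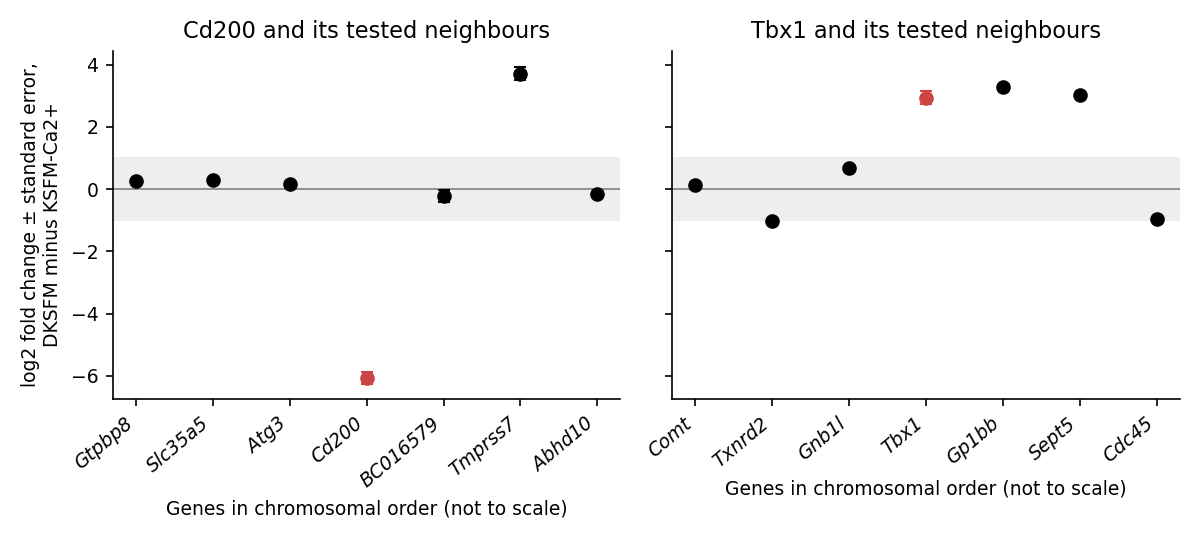
Log2 fold change (vertical axis, DKSFM minus KSFM-Ca2+) of *Cd200* and *Tbx1*, in red, and of the 3 nearest tested genes on each side, in black, in chromosomal order and not to scale, with bars for limma's standard error and a grey band for changes under 2-fold. *Cd200* at -6.06 stands alone below the band in its panel, while *Gp1bb* at 3.27 and *Sept5* at 3.01 lie beside *Tbx1* at 2.94.

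Lists of other genes of the follicle and epidermis give the members their setting. Of 28 other bulge genes, 22 were tested, with 11 higher in DKSFM cells, none lower, 11 not past the threshold and a median log2 fold change of 1.12, beside -0.01 over all tested genes. With the filter on every library 8 were higher and none lower, and the median of the 19 genes that reached it was 0.95. Not tested was *Fzd3*, a Wnt receptor gene listed at 0.6, 0.5 and 0.4 in KSFM-Ca2+ libraries and at 0 in DKSFM libraries, which was called lower with no filter and with quantile normalization. In both settings it entered through the KSFM-Ca2+ libraries alone, in which it is high, so these calls are descriptions. *Ctgf*, which encodes a secreted matrix-associated protein, was called lower with the combined libraries only. Other genes gained a call in the other direction. *Fzd2*, a further Wnt receptor gene at a log2 fold change of 0.99, was called higher under several settings. Among them were the omission of KSFM-Ca2+ replicate 1 (1.01) and that of DKSFM replicate 3 (1.03). *Fst* (0.95) was called higher with quantile normalization (1.01). *Barx2*, a homeobox gene, was listed at 0 in KSFM-Ca2+ libraries and at 87.2, 91.6 and 92.7 in DKSFM libraries. That places it in DKSFM cells at the level of *Runx1*, from no listed coverage in KSFM-Ca2+ cells (no fold given). *Postn*, which encodes the matrix protein periostin, was listed at 0.9, 0.4 and 0.1 in KSFM-Ca2+ libraries and at 19.1, 21.2 and 15.4 in DKSFM libraries (log2 fold change 5.45). The secreted Wnt antagonist *Sfrp1* went from 0.403 ± 0.0519 to 9.62 ± 0.408 (log2 fold change 4.28), and the bulge keratin *Krt15* rose by 4.87.

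Of 15 hair germ and matrix genes, 8 were tested, with 3 higher, 1 lower, 4 not past the threshold and a median of 0.44. With the filter on every library 1 was higher, and the median of the 6 genes that reached it was -0.05. The genes called were of low coverage. *Dlx3*, a homeobox gene of hair differentiation, was listed at 0, 0.1 and 0.1 in KSFM-Ca2+ cells and at 1.0, 1.1 and 1.1 in DKSFM cells, and *Edar*, the ectodysplasin receptor, at 0, 0 and 0.1 against 0.6, 0.7 and 0.7. Both were at the rounding step in KSFM-Ca2+ cells, and both calls were lost with a pseudocount of 1, that of *Edar* also with treat. *Foxn1*, a forkhead gene needed for the hair shaft, went from 1.34 ± 0.177 to 3.63 ± 0.139 (log2 fold change 1.38, lost with a pseudocount of 1 and with treat). The homeobox gene *Msx1* was the lower one, from 8.85 ± 0.0141 to 3.25 ± 0.425 (log2 fold change -1.42, adjusted p = 3.62e-06, lost with treat). *Shh*, *Lef1*, *Msx2*, *Foxi3* and *Wnt10b* were listed at 0 in all libraries. *Krt75*, a keratin gene not tested, was listed at 0.1, 0 and 0 in KSFM-Ca2+ cells and at 0.4, 0.7 and 0.7 in DKSFM cells. It was called higher with no filter (log2 fold change 2.55) and with certain libraries left out. Where a library was left out, it passed the filter through the DKSFM libraries alone, so those calls are descriptions.

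Of 15 genes of the upper follicle and sebaceous gland, 10 were tested, with 6 higher, 1 lower, 3 not past the threshold and a median of 1.38. With the filter on every library the number higher was 3, and the median of the 7 genes that reached it was 0.67. The lower gene was *Gata6*, a transcription factor of the upper follicle (log2 fold change -1.09), whose call was lost with pseudocounts of 0.5 and 1 and with treat. Of the higher genes, the call of the keratin gene *Krt17* (1.08) was lost with treat and with the combined libraries only, and that of the hedgehog target *Gli1* (1.67) with a pseudocount of 1 and with treat. *Sostdc1*, a secreted BMP and Wnt inhibitor, was listed at 0 in KSFM-Ca2+ libraries and at 9.8, 11.6 and 10.2 in DKSFM libraries. *Krt79*, a keratin of the follicle canal, was likewise at 0 and then at 5.8, 6.0 and 7.1. Both were called higher with no fold given. *Prdm1*, a transcriptional repressor, rose from 0.683 ± 0.0867 to 3.73 ± 0.206 (log2 fold change 2.30) and the protease inhibitor *Cst6* from 3.53 ± 0.321 to 12.2 ± 1.76 (1.75). Of 11 genes of the interfollicular epidermis, 9 were tested, with 4 higher, 2 lower, 3 not past the threshold and a median of 0.49. With the filter on every library 2 were higher and 2 lower, and the median of the 7 genes that reached it was of the opposite sign, -0.66. *Lor*, which encodes the envelope protein loricrin, was listed at 0.4, 0.1 and 0.5 against 3.6, 3.9 and 4.0 (log2 fold change 3.41). The metallothionein gene *Mt2* fell from 5431 ± 51.9 to 1049 ± 38.9 (log2 fold change -2.37), and the integrin gene *Itga3* from 1003 ± 32.0 to 252 ± 2.97 (-1.99). The Wnt target *Axin2* was at 0.176 ± 0.156 and 0.760 ± 0.0306. Its call was lost under 10 of the 17 alternative settings in which it was tested, among them the omission of KSFM-Ca2+ replicate 1 or of any DKSFM replicate. No list was tested as a set, and its count and median are descriptions that show nothing particular to it.

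**Figure D4:**
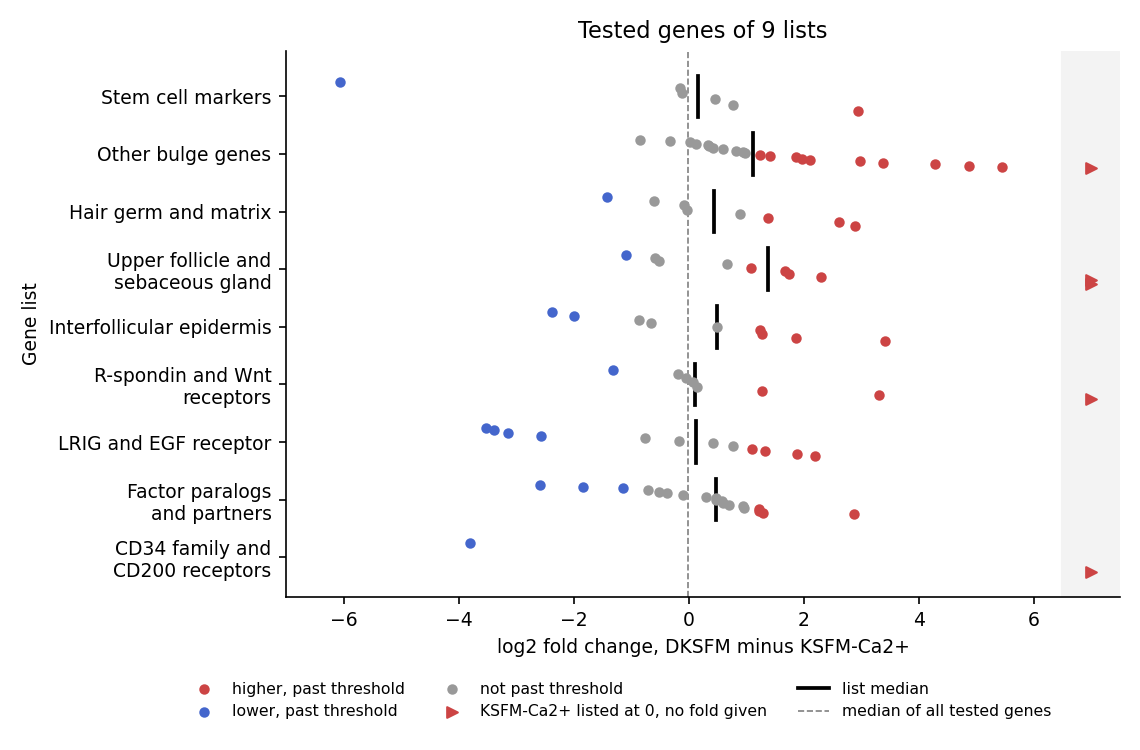
Log2 fold change (horizontal axis, DKSFM minus KSFM-Ca2+) of the tested genes of 9 lists, a point for each gene, red for called higher, blue for called lower and grey for neither, with black bars for the medians of the tested genes of a list and a dashed line for the median of all tested genes. Triangles in the shaded strip are genes listed at 0 in all KSFM-Ca2+ libraries, drawn without a fold, and no median is drawn for the list of CD34 relatives and CD200 receptors because 1 of its 2 tested genes is of that kind.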

How the data were processed

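RNA of 3 KSFM-Ca2+ and 3 DKSFM libraries was measured, with lines and replicate numbers taken from the sample labels. Directional poly(A) libraries were read from a single end at 85 bases. The authors used bcl2fastq, aligned to mm10 (STAR, RefSeq annotation), quantified with Salmon and tested with DESeq2. The authors deposited a signal for each gene, its mean coverage per base to 1 decimal, unscaled. How coverage was computed is not stated. Since coverage is not a count, no count model was fitted here, no counting interval is given, and the 0.1 step limits the precision of low values.

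The members and the gene lists were chosen with earlier results of these data known. Coverage was scaled with trimmed means of M values, unweighted (30% of M, 5% of A), and genes were kept where 3 libraries or more (2 if any library was omitted) had 0.5 or more. limma 3.58.1 in R 4.3.3 was fitted with an intensity trend to log2(normalized coverage + 0.1) of 12409 genes without covariates, with Benjamini-Hochberg adjustment over them, and calls needed an adjusted p under 0.01 and 2-fold. The procedure was tested on simulated data. Some genes of the lists are not reported here. Genes named are all members, up to 4 genes called with the largest change in each list, and the direct paralogs, ligands and partners of members. *Erbb3*, *Tgfa*, *Fzd3*, *Ctgf*, *Fcer1g*, *Gata6*, *Krt17*, *Gli1*, *Cdh1*, *Kdr*, *Tek* and genes given by name to complete a count or as listed at 0 were named after their values were seen. So were *Fzd2*, *Fst* and *Krt75*. The 3 genes nearest in Euclidean distance were taken for each member called, and up to 3 tested neighbours on each side for every member. Positions, overlaps and transcript lengths came from GENCODE M21, with 24490 of 24982 symbols matched. Approximate reads are coverage times median transcript length over read length, which comes to more reads than the study's methods give. Python 3.11.15, pandas 2.3.3 and matplotlib 3.10.9 were used. Alternatives were other scalings, filters, pseudocounts, variance models and thresholds, a replicate block, libraries left out in turn, and the combined libraries only.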

Additional observations from a re-analysis of the deposited data

How the results depend on the processing

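Across 18 alternative settings, 103 of 107 log2 fold changes of tested members kept their side of the adjusted p threshold and none changed sign, but the 17 of *Tbx1* say nothing of stability where a filter admitted it through DKSFM alone. *Lrig1* passed at an adjusted p of 0.05, *Sox9* and *Runx1* failed against a 2-fold change with treat (adjusted p = 1), and *Runx1* failed with the combined libraries only, where fewer libraries were fitted. Without a filter, 9 members were tested among 16081 genes, with 2 called higher and 2 lower, where 1959 and 1501 of all genes were. The calls added were *Lgr5* and *Cd34*, while *Lhx2* (adjusted p = 0.485, limma) was not called. *Lgr5* was above 0 in DKSFM libraries alone and *Cd34* in KSFM-Ca2+ libraries alone. Each thus entered through the line in which it is high, and both calls are descriptions, given with no p. With the filter on every library, 0 members were called higher, since *Tbx1* was not among the 11112 genes tested, and 1020 genes were called higher. Treat called 1057 genes higher and 788 lower, since it tests against 2-fold itself. Leaving out each library in turn gave 1595 to 1704 genes higher and 1301 to 1348 lower, always with 1 member higher and 1 lower. With the replicate number as a block, 1631 genes were higher and 1319 lower. Deviations of libraries with the same number correlated at -0.005, 0.024 and -0.006 across genes. These values show no sign that the numbers pair the libraries, but they cannot exclude it. Of 504 counts of called genes in lists, 479 were within 1.5 times the reported count. Many of the reported counts are 0 or small, so this tally says little of stability. Of 57 list genes called, 16 lost the call under at least 1 setting and none changed sign. A further 9 lost no call but were not among the genes tested with the filter on every library. Another 12 list genes were called under at least 1 alternative only, 7 of them with a library left out. The rounding step limits what can be said of *Cd34*, *Lgr5*, *Lgr6* and *Lhx2*, whose listed values are worth few reads.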
